A study of Homo sapiens with 12 samples.

Results

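The genes described here are 9 regulators and targets of the oxidative stress response outside glutathione synthesis: *HMOX1*, *NQO1*, *TXNRD1*, *SRXN1*, *SQSTM1*, *OSGIN1*, *NFE2L2*, *KEAP1* and *BACH1*. They were chosen by symbol, and all 9 were found among the 23292 gene symbols that the deposited tables list. RNA was sequenced from HEK293T cells, an established human embryonic kidney line, after 6 h with vehicle (DMSO) or with 10 µM AA263, AA263yne or AA263-5, compounds studied as activators of the ATF6 arm of the unfolded protein response. Each of the 4 groups had 3 samples, 12 in all, of the same wild-type line. The value used for each gene is the authors' mean over all samples after scaling for library size, the pooled mean. It joins vehicle and treated cells, and 9 of the 12 samples were treated, so it is neither a level of resting cells nor a response to a compound. No value of a single sample or group was used, so no spread between replicates, depth of a sample, test or compound effect is given for any gene.

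*NFE2L2* encodes NRF2, a transcription factor that KEAP1 holds in the cytoplasm and hands to a CUL3 ubiquitin ligase. Electrophiles and oxidants modify cysteines of KEAP1, after which NRF2 accumulates, pairs with small MAF proteins and binds antioxidant response elements. BACH1 occupies related elements as a repressor and leaves them when it binds heme, and *HMOX1* is known as a gene on which both factors act.

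Sequences close to the start sites are shown first, because the antioxidant response element is what NRF2 and BACH1 recognize. RefSeq promoter windows on GRCh38.p14, from 250 bases before to 50 bases after an annotated start, were at hand for 8 of the 9 genes, 15 windows in all. *HMOX1* is the gene without one. The letters TGACNNNGC, the core of the element, were searched on both strands. They were found in 3 windows of 2 genes, *TXNRD1* and *KEAP1*. Of all 34943 windows, 13.3% held these letters, and of all 27167 gene symbols 16.1% had at least one window with them. The matches are printed below in the direction of transcription, with the 9 letters of the match in capitals and 10 bases on either side. A match on the other strand shows the reverse complement of the element.
*TXNRD1* upstream start, chr12:104215680-104215688: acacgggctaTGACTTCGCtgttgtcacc
*TXNRD1* upstream start, other strand, chr12:104215771-104215779: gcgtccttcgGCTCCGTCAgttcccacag
*TXNRD1* downstream start, other strand, chr12:104286930-104286938: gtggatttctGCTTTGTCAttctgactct
*KEAP1*, chr19:10502817-10502825: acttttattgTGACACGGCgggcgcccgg
*KEAP1*, other strand, chr19:10502794-10502802: gcccggctctGCTTAGTCAtggtgacctg

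In *TXNRD1*, the matches began 99 and 8 bases before the upstream start and 102 bases before the downstream one. In *KEAP1*, both matches lay in 1 of its 2 windows, beginning 54 and 31 bases before the start. The shorter letters TGANNNNGC, which leave the fourth base free, were in at least one window of 7 of the 8 genes, all but *SRXN1*. They are common, since 47.0% of all gene symbols had them in a window, and 41.8% of all windows against 8 of the 15 held them. Of 2 matches in *OSGIN1*, 1 is shown because it joins the TGAGTCA letters of an AP-1 site to the GC end of the element. The match of *NQO1*, a gene by which the element is often introduced, is shown beside it. It fits only the shorter letters, since the *NQO1* window held no TGACNNNGC. Whether it is an antioxidant response element was not tested.
*OSGIN1*, other strand, chr16:83953141-83953149: acgggcccctGCTGACTCAcgcttatgaa
*NQO1*, other strand, chr16:69726671-69726679: tcctggagctGCAGCCTCAgcatcctccg

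A match describes letters within these windows, and the absence of one says nothing about elements farther away. The windows themselves differed in base composition. In *SRXN1* 80.0% of bases were G or C and in *NQO1* 62.7%, while the median over all windows was 58.7%. Of the windows of *BACH1*, 2 were at 77.7% and 78.0% and the other at 34.3%.

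The 9 genes covered a wide range of levels. Ratios and orders of levels between genes are given per kilobase, that is, after the pooled mean was divided by the length of the longest annotated transcript in GENCODE 44. Where a gene's pooled mean is placed among all gene symbols, the pooled mean is unscaled, because not every symbol has a length. Per kilobase, *HMOX1* and *SQSTM1* stood highest, *TXNRD1*, *KEAP1* and *NFE2L2* followed, *SRXN1*, *BACH1* and *NQO1* were lower, and *OSGIN1* was lowest. *SQSTM1* had 209 times the level of *OSGIN1*, with 168 times by the MANE Select transcripts, which are the reference transcripts agreed between RefSeq and Ensembl, and 468 times by the median length of each gene's transcripts. The median of the 9 genes was 501 per kilobase, beside 86.8 for all gene symbols with a length. On this scale 7 of the 9 genes lay above that median. Of the 9 genes, 8 had a pooled mean of at least 100, as did 11642 of all 23292 gene symbols.

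**Figure D1:**
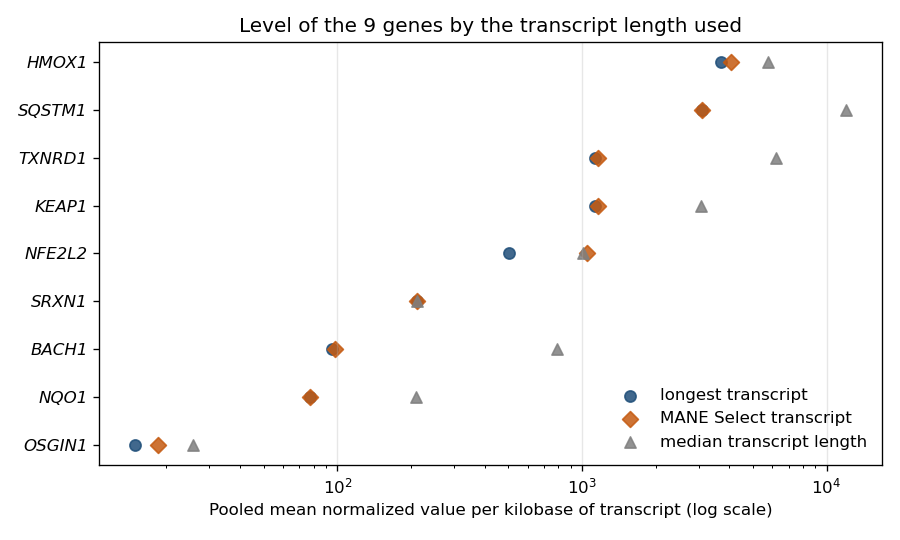
Pooled mean normalized value per kilobase (log axis) of the 9 genes, with 1 row per gene and 1 point for each way of choosing the transcript length. No error bars are drawn, since the pooled mean comes without a spread. *HMOX1* is the highest gene by the longest and by the MANE Select transcript, *SQSTM1* by the median length, and *OSGIN1* is the lowest by all 3.

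Among the enzymes, *HMOX1* encodes heme oxygenase 1, the inducible enzyme that opens heme to biliverdin, carbon monoxide and iron. It lies on the forward strand of chromosome 22 of GRCh38 from 35380361 to 35394214. Its pooled mean was 6296, higher than that of 95.4% of all gene symbols, and its level was 3710 per kilobase. This was 3.06 times the level of *HMOX2*, the constitutive heme oxygenase, at 1213 per kilobase. The pooled mean cannot say how the level of *HMOX1* divides between vehicle and treated cells.

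*NQO1* encodes a quinone reductase that is widely used as a readout of NRF2. It lies on the reverse strand of chromosome 16 from 69706996 to 69726668. It had a pooled mean of 195, above that of 55.6% of gene symbols, and a level of 77.0 per kilobase. *HMOX1* thus had 48.2 times the level of *NQO1* by the longest transcripts and 27.5 times by the median length. The paralog *NQO2* stood higher than *NQO1*, at 432 per kilobase, a ratio of 5.61 that was 3.64 by the median length. Per kilobase, *NQO1* lay a little under the median of all gene symbols, 86.8, and unscaled a little over it.

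*TXNRD1*, the cytosolic selenoenzyme that reduces thioredoxin with NADPH, lies on the forward strand of chromosome 12 from 104215779 to 104350307. Its pooled mean was 4508, above that of 93.1% of gene symbols, and its level was 1134 per kilobase. Its mitochondrial paralog *TXNRD2* reached 312 per kilobase and *TXNRD3* 79.4 per kilobase. The level of *TXNRD1* was thus 3.64 times that of *TXNRD2*, or 2.30 times by the MANE Select transcripts and 11.7 times by the median length. Over *TXNRD3* the ratio was 14.3, and 46.5 by the median length. Its substrate *TXN* stood above the enzyme, at 11000.1 per kilobase, a ratio of 9.70 by the longest transcripts and 2.06 by the median length.

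*SRXN1* encodes sulfiredoxin, which repairs overoxidized peroxiredoxins. It lies on the reverse strand of chromosome 20 from 646615 to 653200. Its pooled mean was 536 and its level 212 per kilobase, and *PRDX1*, one of the peroxiredoxins it repairs, stood 77.4 times higher at 16428 per kilobase. This ratio was 91.7 by the median length and 106 by the MANE Select transcripts. The exons of *SRXN1* are shared for 90.7% of their bases with another protein-coding gene model on the same strand, and their reads cannot be told apart from it by position alone. How the authors' counting treated such reads is not stated.

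*SQSTM1* encodes p62, an autophagy receptor that also binds KEAP1 and thereby links autophagy to NRF2. It lies on the forward strand of chromosome 5 from 179806398 to 179838078. Its pooled mean of 8830 was above that of 97.2% of gene symbols, and its level was 3109 per kilobase. This was 5.62 times the level of *NBR1*, a related receptor, at 553 per kilobase, and 14.5 times by the median length. *OSGIN1*, an oxidative stress induced growth inhibitor gene, lies on the forward strand of chromosome 16 from 83931311 to 83966332. It was the only one of the 9 genes with a pooled mean under 100, at 35.5, and its level was 14.9 per kilobase. Its pooled mean was still above that of 42.5% of gene symbols, many of which are hardly expressed in this line.

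**Figure D2:**
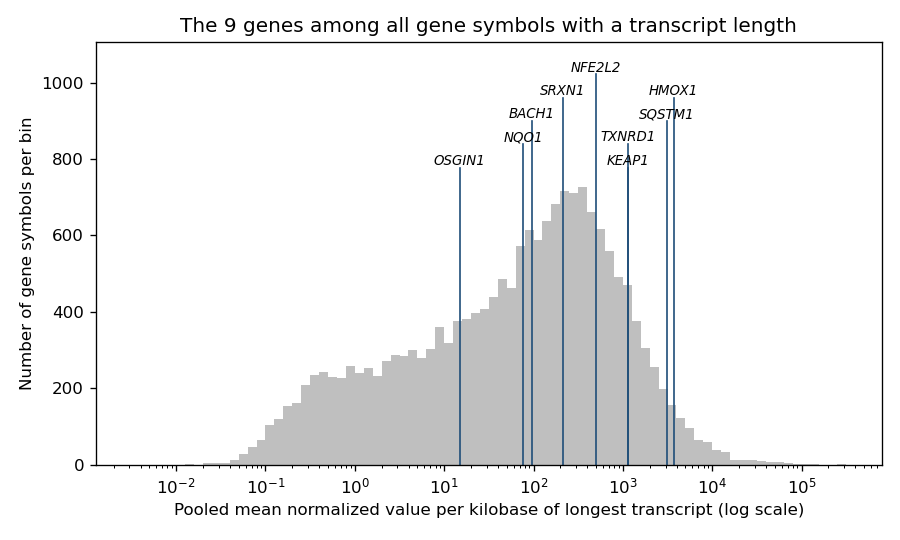
Number of gene symbols (vertical axis) by pooled mean normalized value per kilobase of the longest transcript (log axis, grey bars, 17983 gene symbols with a length), with a blue line at each of the 9 genes. *HMOX1* at 3710 and *SQSTM1* at 3109 lie in the upper tail, and *OSGIN1* at 14.9 lies left of the main peak.

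Among the regulators, *KEAP1*, the sensor and ligase adaptor, lies on the reverse strand of chromosome 19 from 10486125 to 10503558. The pooled mean of *KEAP1* was 2985 and its level 1127 per kilobase. It differed from *TXNRD1*, its neighbour in the order, by a ratio of 1.01, although by the median length *TXNRD1* was at 6193 and *KEAP1* at 3079 per kilobase. *NFE2L2* lies on the reverse strand of chromosome 2 from 177218667 to 177392756, with a pooled mean of 2557 and a level of 501 per kilobase. *KEAP1* had 2.25 times the level of *NFE2L2* by the longest transcripts and 1.11 times by the MANE Select transcripts. The longest transcript of *NFE2L2*, of 5104 bases, retains an intron, whereas its MANE Select transcript has 2446 bases, and this choice alone moved its level to 1045 per kilobase. NRF2 is set mainly through degradation of the protein, which RNA does not show.

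*BACH1* lies on the forward strand of chromosome 21 from 29194071 to 29630751. It had a pooled mean of 549 and a level of 95.1 per kilobase. The activator *NFE2L2* thus stood above the repressor *BACH1* by a ratio of 5.27 by the longest transcripts, 10.7 by the MANE Select transcripts and 1.28 by the median length. *BACH1* in turn stood above its paralog *BACH2*, at 11.1 per kilobase, by a ratio of 8.54, or 5.32 by the median length. Of the other CNC factors, *NFE2L1* was at 1030 and *NFE2L3* at 165 per kilobase, and *NFE2*, the erythroid member, at 3.75 per kilobase with a pooled mean of 6.87. The order of *NFE2L1* and *NFE2L2* turned with the transcript chosen, with a ratio of 2.06 by the longest transcripts, 0.986 by the MANE Select transcripts and 8.72 by the median length.

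Overlaps with other genes were taken over the exons of all annotated transcripts of a gene joined together. For *NFE2L2* these are 14975 bases from 65 transcripts, beside 2446 bases in its MANE Select transcript. The shares are thus not shares of a main transcript or of reads, and the part within the MANE Select transcripts was not computed. Of the exon bases of *NFE2L2*, 23.4% overlap *HNRNPA3* on the opposite strand, a gene with a pooled mean of 10347. Of those of *SQSTM1*, 21.0% overlap *MRNIP*, also on the opposite strand. *NQO1* shares 19.4% of its exon bases with a noncoding gene on the opposite strand. The labels describe strand-specific libraries, but whether strand was used in counting is not stated, so the part of such reads in these values was not tested. On the same strand, 13.6% of the exon bases of *NFE2L2* overlap a noncoding gene, and 8.22% of those of *OSGIN1* overlap *MLYCD*, whose pooled mean of 275 exceeds the 35.5 of *OSGIN1*. Strand cannot separate the reads of these.

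Related genes were read from 7 lists, of which 57 of 58 genes were in the tables. *AKR1B10* was not analysed here. In the list of partners and machinery of NRF2 and BACH1, 8 of 11 genes had a pooled mean of at least 100, and the median level was 165 per kilobase. The ligase subunit *RBX1* was highest at 1191 per kilobase by the longest transcripts, and *NFE2L1* by the median length, at 8840. *CUL3*, the scaffold of the ligase, was at 748 per kilobase, and the ratio of its adaptor *KEAP1* to it turned with the length used, from 1.51 by the longest transcripts to 0.419 by the median length. The small MAF genes that NRF2 and BACH1 need as partners were below the median of all gene symbols per kilobase, with *MAFG* at 39.9, *MAFK* at 23.1 and *MAFF* at 8.48 per kilobase. Unscaled, *MAFG* was above that of 55.9% of gene symbols, with a pooled mean of 202.

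In the thioredoxin system all 11 genes had a pooled mean of at least 100, with a median level of 7583 per kilobase. By the longest transcripts *PRDX1*, *TXN* and *PRDX2* led this list, while *TXNRD3* was lowest. All 8 genes of the heme and iron list passed 100 as well, with a median of 956 per kilobase. Its highest gene, the ferritin light chain *FTL*, stood at 8302 per kilobase, 2.24 times the level of *HMOX1* (1.43 times by the median length), and the heme transporter gene *SLC48A1* was lowest at 61.2. *BLVRA*, whose product reduces the biliverdin made by heme oxygenase, was at 700 per kilobase.

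TXNRD1 and NQO1 use NADPH. The list for its supply holds enzymes that make it and, with *TALDO1* and *TKT*, enzymes of the pentose phosphate pathway that do not make it themselves. Its 6 genes had a median of 2889 per kilobase, from 332 for *ME1* to 7259 for *TALDO1*. By the MANE Select transcripts *TKT* was highest instead, at 10369 per kilobase. The quinone and carbonyl reductases spanned the widest fold range of the 7 lists. Only 4 of its 9 measured genes had a pooled mean of at least 100, and its median was 60.5 per kilobase. *AKR1B1* reached 3846 per kilobase, while *AKR1C1*, *AKR1C2* and *AKR1C3*, known NRF2 targets in other human cells, were at 1.04, 3.54 and 2.33 per kilobase. By the median length these were at 7.94, 16.9 and 3.81, with *AKR1C3* rather than *AKR1C1* lowest. *AKR1C1* and *AKR1C2* are near-identical copies and *AKR1C3* a close relative, so the split of reads between them is uncertain. *NQO1* lay a little above the median of this list and *OSGIN1* below it.

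**Figure D3:**
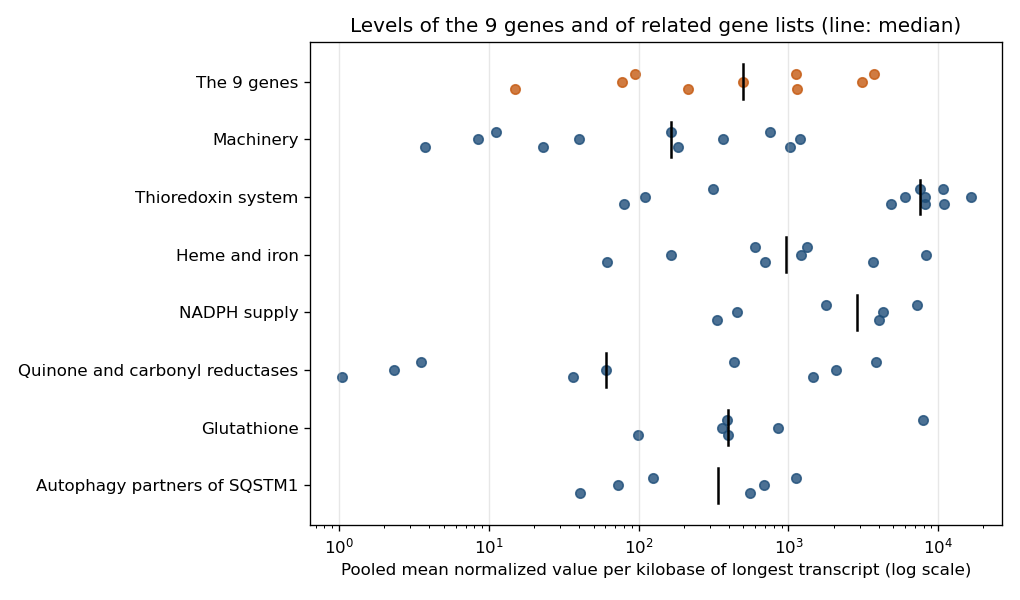
Pooled mean normalized value per kilobase of the longest transcript (log axis) of the 9 genes (orange) and of the genes of 7 related lists (blue), 1 point per gene, with a black line at each median. The thioredoxin system has the highest median, at 7583, and the quinone and carbonyl reductases the lowest, at 60.5, while the 9 genes have a median of 501.

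The glutathione genes had a median level of 392 per kilobase over 6 genes, from 99.5 for the cystine transporter gene *SLC7A11* to 7966 for *GSTP1*. The 6 autophagy partners of p62 had a median of 339 per kilobase, from 40.4 for *MAP1LC3B* to 1125 for *TAX1BP1*. By the median length *CALCOCO2* was highest instead, at 4333 per kilobase. *SQSTM1*, at 3109 by the longest transcripts and 12062.5 by the median length, stood above every gene of that list.

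The label of the cell line was checked against a few marker genes. Of genes usually expressed in HEK293 cells, *NEFM*, *NEFL* and *LIN28B* had pooled means of 3786, 2225 and 631. *PAX2*, another of these, had 27.7, under the median of 99.7 over all gene symbols. *PTPRC*, *ALB*, *CDH5* and *NPHS1*, which mark leukocytes, hepatocytes, endothelium and podocytes, had pooled means of 0.544, 1.30, 0.321 and 0.699. *SOX11*, *HBB* and *UMOD* were not analysed here.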

How the data were processed

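HEK293T cells were treated and RNA sequenced in 4 groups of 3 samples. SeqManPro (DNAstar) was the authors' aligner, with GRCh38.p7 as the genome in the methods, while the submitters' processing notes name both GRCh38 and GRCh37; they quantified expression with ArrayStar and QSeq and ran DESeq2, version 1.40.1 per the labels. The deposited signal of a gene is the authors' mean over all samples of values divided by size factors, and it was identical in the 3 tables. The other columns of each table hold the authors' own comparisons of a compound with vehicle (log2 fold change, standard error, statistic and p-values), and none was used. The methods name RPKM as input. RPKM times length in kilobases sums to 1 M, whereas the pooled means gave 146 M (longest transcripts), so levels were divided by length here. The sum shows only that the values are not plain RPKM. Whether they still depend on length was not tested, and if they do not, levels per kilobase are overcorrected for length. The pooled means sum to 36.6 M. The methods give a nominal number of reads per sample, but the depth that single samples reached is unknown.

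Lengths came from GENCODE 44, on the primary sequence of GRCh38 that GRCh38.p7 shares. They were matched by symbol or unique RefSeq synonym for 77.2% of symbols and 96.2% of those with a pooled mean of at least 100. Percentiles in the report are of the unscaled pooled mean, over all symbols. In every file, 23 symbols had become dates and were not used by name. The rank and motif steps were tested on simulated data. The members and lists were chosen with earlier results of these data known. Named genes are the 9 members and, from each list, the highest, the lowest, paralogs of members and genes near 0; others, such as *CUL3*, *TXN*, *PRDX2*, *BLVRA* and the small MAF genes, were chosen after their values were seen. Computation used Python 3.11.15 with pandas 2.3.3.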

Additional observations from a re-analysis of the deposited data

How the results depend on the processing

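The pooled means were the same in all 3 tables. Between 5 and 8 of the 9 genes lay above the median gene, 7 by the longest transcript, 8 with no length scaling, 6 by the median length or the MANE Select transcript (the latter chosen after seeing the data), and 6 or 5 when set against genes with a pooled mean of at least 10 or 100. The order of the 9 genes was the same by the longest and the MANE Select transcripts. With no length scaling *SQSTM1* came before *HMOX1*, and both there and by the median length *BACH1* came before *SRXN1*. By the median length *SQSTM1* and *TXNRD1* came before *HMOX1*, which was at 5787 per kilobase, and *BACH1* had the largest fold change in level, from 95.1 to 793 per kilobase. Of the 8 genes with a promoter window, 2 held the letters TGACNNNGC (16.1% of all gene symbols did), 2 a longer motif that asks for A or G before them (8.41%) and 7 the shorter TGANNNNGC (47.0%). The 8 genes had 15 windows, beside 34943 windows for 27167 gene symbols. With more windows per gene, their shares are not like for like. With 1 pooled mean per gene, no sample could be left out. No paired analysis was possible because the one column used is a mean over all samples, which the numbered replicates cannot be read from.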
